A study of Homo sapiens with 12 samples.

Results

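The genes described are those that write, remove and read out phosphorylation of eIF2alpha: the kinases EIF2AK1, EIF2AK2, EIF2AK3 and EIF2AK4, the substrate EIF2S1, the phosphatase subunits PPP1R15A and PPP1R15B, and the transcription factor ATF4. They were chosen by symbol, 8 of the 57500 genes of the deposited count table, and each symbol stood on 1 Ensembl ID. All 8 were among the 27029 genes with enough counts to be tested. Total RNA, depleted of ribosomal RNA, came from HCC1806 and MDA-MB-468, established lines of triple-negative breast cancer, a tumour type without estrogen receptor, progesterone receptor or HER2 amplification. In HCC1806, cells with the control guide sgC1 were set against cells with sgPACT-2, a Cas9 guide against PRKRA, the gene of the protein PACT. In MDA-MB-468 the control guide was sgNTA and the depleting guide was again sgPACT-2. Each of these 4 groups had 3 libraries. All 4 groups carried a guide, and whether the cells were clones or pools is not given in the sources used here. Nor do the labels say that the 3 libraries came from separate cultures, so the p-values measure the spread between these libraries, which may be technical.

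Phosphorylation of the alpha subunit of initiation factor eIF2 slows translation of most mRNAs and, through short upstream reading frames, favours translation of ATF4; this is the core of the integrated stress response. Each kinase answers to another stress: EIF2AK1 (HRI) to heme shortage and mitochondrial stress, EIF2AK2 (PKR) to double-stranded RNA, EIF2AK3 (PERK) to unfolded protein in the endoplasmic reticulum, and EIF2AK4 (GCN2) to uncharged tRNA. PPP1R15A (GADD34) and PPP1R15B (CReP) bring protein phosphatase 1 to eIF2alpha and reverse the mark; PPP1R15A is known as an inducible ATF4 target that closes the loop, and PPP1R15B as the constitutive partner. The kinases and ATF4 are regulated largely at the level of protein activity and translation, and neither was measured in these RNA counts. PACT binds PKR and double-stranded RNA, and the series title names suppression of PKR by PACT.

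Libraries of HCC1806 held 18640633 to 24704877 counts and those of MDA-MB-468 34581754 to 44790741. Fitted on its own, HCC1806 had a biological coefficient of variation of 0.204, against 0.0936 for MDA-MB-468. The tests below used 1 model over both lines, with a shared dispersion for each gene. With each line fitted alone, the SEs of the 8 genes were larger in HCC1806 and smaller in MDA-MB-468. For EIF2AK2 they were 0.129 against 0.107 in HCC1806 and 0.068 against 0.107 in MDA-MB-468. The intervals below are therefore narrower for HCC1806, and wider for MDA-MB-468, than the spread of each line alone would give. The epithelial markers EPCAM, CDH1, KRT5, KRT8, KRT18 and EGFR were at 108.4 CPM or more in each library (CPM, counts relative to a library size scaled by the TMM method), and PGR was at most 0.300 CPM. ESR1 was detected at 6.27 to 24.2 CPM and ERBB2 at 124 to 209 CPM. The 8 fibroblast, immune and endothelial markers (COL1A1, COL1A2, COL3A1, PDGFRB, PTPRC, CD3E, CD68 and PECAM1) summed to 34.9 to 47.2 CPM in HCC1806 controls and 43.8 to 55.2 in depleted libraries, mostly COL1A1, while CD3E was at or near 0; in MDA-MB-468 the sums were 20.9 to 24.3 and 19.6 to 22.7 CPM. PRKRA, the targeted gene, measured 78.6, 82.6 and 72.1 CPM in HCC1806 controls and 37.5, 36.1 and 37.3 after depletion (log2 -1.07, SE 0.10, adjusted p = 1.7e-05). In MDA-MB-468 it measured 41.1, 45.9 and 46.9 CPM against 39.2, 35.5 and 41.6 (log2 -0.20, SE 0.10, adjusted p = 0.958), groups that overlapped, so depletion in that line rests on its label. In bulk RNA a change in every cell and a change in part of the cells cannot be told apart.

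The site on which the kinases and the phosphatase subunits act is a single serine of eIF2alpha, residue 51 when the first methionine is not counted. Its surroundings are shown as the EIF2S1 coding sequence in GENCODE 29, codons 38 to 67 of 315, because it holds the mark that the pathway turns on; the capitals mark codon 52, the serine.
EIF2S1: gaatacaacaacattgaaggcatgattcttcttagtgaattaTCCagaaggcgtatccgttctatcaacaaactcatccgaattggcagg

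On the phosphatase side, PPP1R15A docks protein phosphatase 1 through a lysine-valine-any residue-phenylalanine motif. Its coding sequence is shown around this motif because the gene is the one whose mRNA rose below; the capitals mark the motif, which starts at codon 555 of 674 and occurred once.
PPP1R15A: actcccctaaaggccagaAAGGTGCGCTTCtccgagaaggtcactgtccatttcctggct

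PPP1R15A was the 1 gene of the 8 that changed in HCC1806, where 2.49% of all genes tested changed, and also the 1 of the 8 that changed in MDA-MB-468, where 0.170% did. A gene counts as changed where its adjusted p was under 0.05 in edgeR's quasi-likelihood test. PPP1R15A (ENSG00000087074, GRCh38 chr19:48872392-48876057, plus strand) overlaps no other annotated gene. In HCC1806 it measured 131, 104 and 134 CPM in the controls and 324, 307 and 324 CPM in the depleted libraries. The depleted libraries lay close together and far above the highest control. The fold was 2.59 (95% interval 2.16 to 3.10; log2 1.37, SE 0.12, adjusted p = 1.1e-05). In MDA-MB-468 the controls measured 63.4, 52.2 and 49.4 CPM and the depleted libraries 139, 109.9 and 131 CPM. There too each depleted library stood above every control, with a fold of 2.30 (95% interval 1.92 to 2.76; log2 1.20, SE 0.12, adjusted p = 1.4e-04). The rise passed in each of the 19 alternative fits in either line, with log2 values from 1.27 to 1.50 and from 1.13 to 1.32.

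The size of the PPP1R15A rise was not shown to differ between the lines. The difference of the effects (MDA-MB-468 minus HCC1806) was -0.17 on the log2 scale (95% interval -0.54 to 0.20, adjusted p = 0.858), so a fold in MDA-MB-468 anywhere from 0.690 to 1.15 times that in HCC1806 lies within the interval. That difference passed for none of the 8 genes and for 0.122% of all genes; 2 of the 8 had an unadjusted p under 0.05 (EIF2AK1 and EIF2AK2, against 8.39% of all genes), and none passed with DESeq2. What did differ was the starting level: MDA-MB-468 controls held 0.447 times the PPP1R15A of HCC1806 controls (95% interval 0.373 to 0.536, adjusted p = 2.0e-07). The depleted MDA-MB-468 libraries, at 109.9 to 139 CPM, thus overlapped the HCC1806 controls, at 104 to 134 CPM.

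PPP1R15B, the constitutive subunit (ENSG00000158615, chr1:204403387-204411791, minus strand), was higher by a small margin that did not pass. In HCC1806 it measured 143, 130.2 and 129 CPM in controls and 169, 166 and 157 CPM after depletion. The groups did not overlap, yet the fold was 1.22 (95% interval 1.08 to 1.39; log2 0.29, SE 0.09) with an adjusted p of 0.0935. With the replicate number as a block its adjusted p was 0.0261, with DESeq2 0.0145 and with HCC1806 alone 0.313. The correlations between libraries, given with the processing, bear out that pairing only in part. In MDA-MB-468 the values were 225, 230.5 and 233 CPM against 245, 239 and 252 CPM, again without overlap, with a log2 change of 0.10 (95% interval -0.09 to 0.28, adjusted p = 1). Groups without overlap were found for 4 of the 8 genes in HCC1806 (PPP1R15A and PPP1R15B higher, EIF2AK1 and EIF2AK2 lower), against 16.7% of all genes (8.51% higher and 8.17% lower). In MDA-MB-468 they were found for PPP1R15A and PPP1R15B, both higher, against 13.1% of all genes (6.20% higher).

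**Figure D1:**
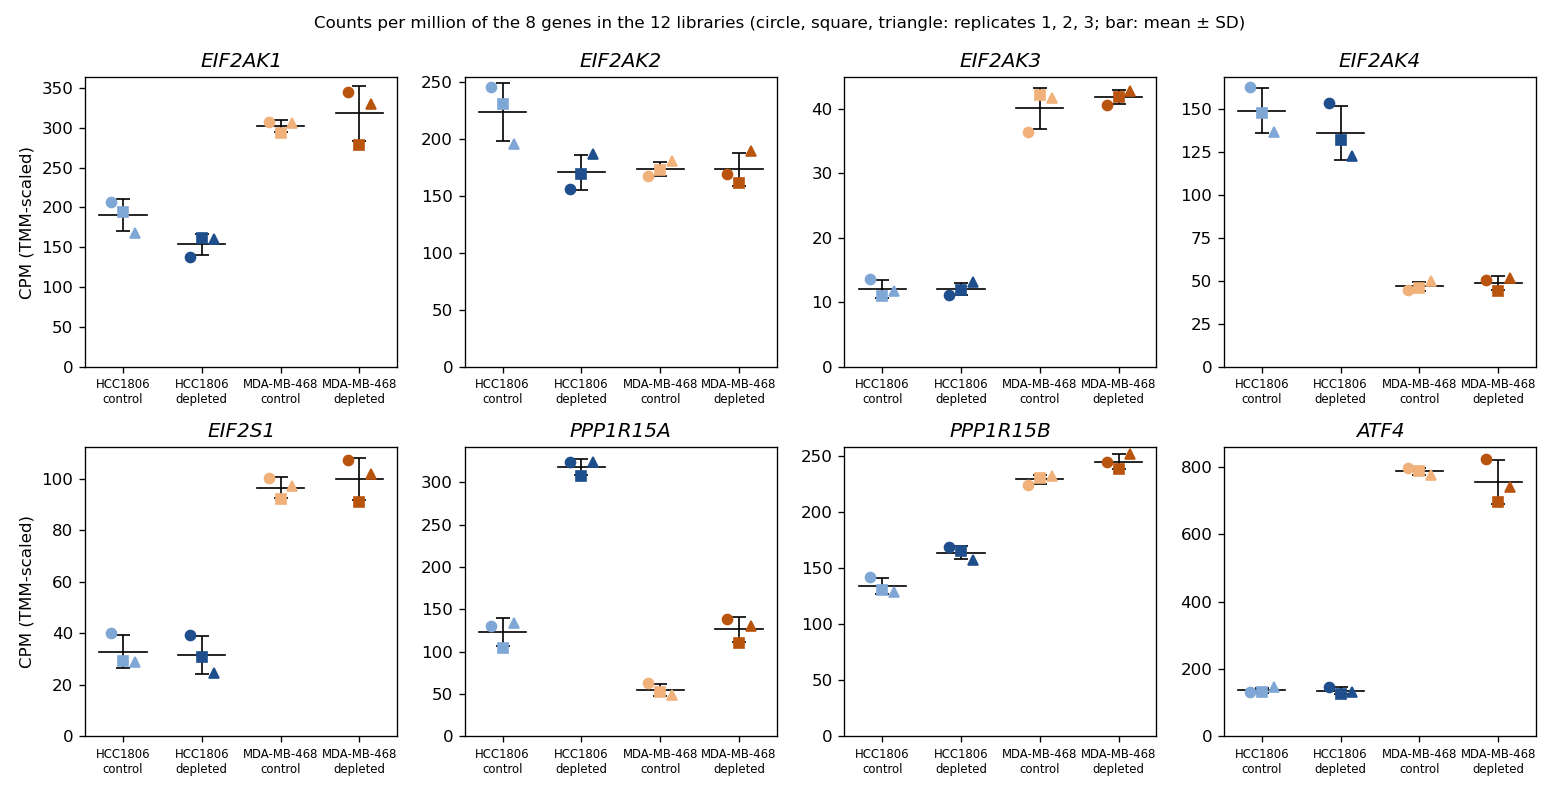
CPM of the 8 genes (y axis, TMM-scaled, starting at 0) in the 4 groups (x axis); each symbol is a library, marked by replicate number, and the bars are mean ± SD over 3 libraries. PPP1R15A stands higher in the depleted libraries of both lines, at 307 to 324 CPM in HCC1806 and 109.9 to 139 CPM in MDA-MB-468, while ATF4 separates the lines and not the treatments.

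Within a library the balance of the subunits can be read without scaling between libraries. Per base of exon (union of all annotated exons), HCC1806 controls held 1.55, 1.35 and 1.75 PPP1R15A counts for each PPP1R15B count, and depleted libraries 3.24, 3.13 and 3.48. The order of the libraries left a clear gap between the groups. The mean log2 ratio went from 0.63 ± 0.19 to 1.71 ± 0.08 (SD, n = 3 each), with an exact two-sided permutation p of 0.10, the smallest that 3 against 3 libraries can give. In MDA-MB-468 the ratio was 0.477, 0.383 and 0.359 in controls and 0.959, 0.778 and 0.878 after depletion. PPP1R15B therefore remained the more abundant of both per base there, in all 6 libraries. The log2 ratio went from -1.31 ± 0.21 to -0.20 ± 0.15 (SD, n = 3 each; exact permutation p = 0.10). With the length of the longest transcript in place of the exon union, the depleted MDA-MB-468 ratios lay from 1.01 to 1.25, so whether PPP1R15A passed PPP1R15B depended on the length used.

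**Figure D2:**
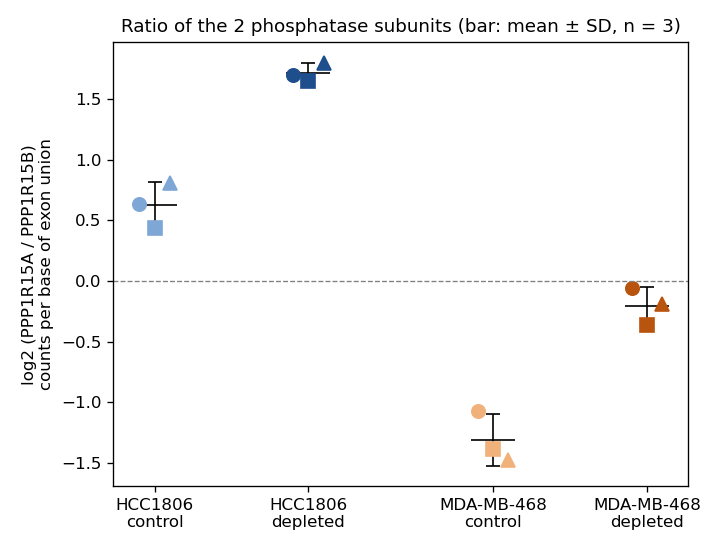
Log2 ratio of PPP1R15A to PPP1R15B counts per base of exon (y axis) in the 4 groups (x axis); symbols are libraries by replicate number, bars are mean ± SD, and the dashed line marks equal abundance. The ratio is higher after depletion in both lines, and the depleted MDA-MB-468 libraries stay under the HCC1806 controls.

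RefSeq's table (GRCh38.p14) gave the promoter, from 250 bases before to 50 after the start, of 7 of the 8 genes, all except EIF2AK1. They were searched on both strands for 5 motifs: the amino acid response element core TGATGNAAT, the cyclic AMP response element TGACGTCA, the interferon-stimulated response element core (GAAA, 2 bases of any kind, GAAA), a kappaB site (GGG, 2 bases of any kind, TTTCC) and the ER stress element (CCAAT, 9 bases of any kind, CCACG). The PPP1R15A promoter is shown because this gene rose in both lines; the capitals mark TGACGTCA, which reads the same on both strands and starts 58 bases before the start site (chr19:48872171-48872470, plus strand). This motif was in 1.98% of 27305 promoters of the same length.
PPP1R15A promoter: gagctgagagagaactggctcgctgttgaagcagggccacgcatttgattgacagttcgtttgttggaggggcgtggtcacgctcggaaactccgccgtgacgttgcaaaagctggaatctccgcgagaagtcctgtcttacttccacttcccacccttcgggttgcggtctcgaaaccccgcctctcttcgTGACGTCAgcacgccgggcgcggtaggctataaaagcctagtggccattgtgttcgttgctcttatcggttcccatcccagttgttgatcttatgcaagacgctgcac
The EIF2AK2 promoter is shown as that of the kinase PACT is known to bind (chr2:37156931-37157230, minus strand); the capitals mark a match to the interferon-stimulated response element core that starts 6 bases before the start site, a motif held by 3.65% of promoters.
EIF2AK2 promoter: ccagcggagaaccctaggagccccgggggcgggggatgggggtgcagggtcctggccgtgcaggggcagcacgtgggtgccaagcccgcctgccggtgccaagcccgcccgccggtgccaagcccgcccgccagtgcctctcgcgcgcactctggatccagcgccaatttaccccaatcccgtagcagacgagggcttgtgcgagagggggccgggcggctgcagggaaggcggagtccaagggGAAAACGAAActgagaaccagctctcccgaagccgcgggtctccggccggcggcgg
The PPP1R15B promoter held the kappaB letters on the strand opposite to the gene, a motif in 1.92% of promoters. The windows of the other 4 genes held none of the 5. TGATGNAAT was searched with T as its last base only. The PPP1R15B promoter also holds TGATGCAAC, which differs from it in that base and was not counted as a match. A match is a string of letters and says nothing of binding.

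None of the 4 kinase genes changed in either line in the main edgeR fit, and the values nearest to a change were lower ones in HCC1806. Unadjusted, EIF2AK1 and EIF2AK2 had a p under 0.05 in HCC1806, where 14.5% of all genes did, and no kinase did in MDA-MB-468, where 5.27% did. EIF2AK2, the gene of PKR (ENSG00000055332, chr2:37099210-37157065, minus strand), measured 245, 231 and 195 CPM in HCC1806 controls and 156, 169 and 186 CPM after depletion. The groups did not overlap, but control replicate 3 and depleted replicate 3 lay close together. The log2 change was -0.39 (SE 0.11, 95% interval -0.62 to -0.17) and its adjusted p was 0.0664. This call turned on the settings: with edgeR the adjusted p was 0.0194 with the replicate block and 0.0283 with no filter on low counts. With DESeq2 it was 0.0109, and with HCC1806 alone 0.303. EIF2AK2 also passed without control replicate 3 (0.0313) and without depleted replicate 3 (0.0390). In MDA-MB-468 EIF2AK2 measured 168, 172 and 180.4 CPM in controls and 169, 161 and 189 CPM after depletion, and the groups overlapped. Its interval there, -0.23 to 0.22 on the log2 scale, leaves out the point value of HCC1806, while the difference of the effects (0.39, 95% interval 0.07 to 0.71) had an adjusted p of 0.482.

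EIF2AK1, the gene of HRI (ENSG00000086232, chr7:6022244-6059230, minus strand), had much the same values as EIF2AK2 in HCC1806: 207, 195 and 168 CPM in controls and 138, 162 and 161 CPM after depletion. Its log2 change of -0.31 (SE 0.11, 95% interval -0.54 to -0.08) did not pass (adjusted p = 0.169), nor did it in any of the 19 alternatives, among them the replicate block (0.0579). In MDA-MB-468 EIF2AK1 measured 307, 293 and 306 CPM against 345, 279 and 329.5 CPM, where the depleted libraries lay on both sides of the controls (log2 0.07, 95% interval -0.16 to 0.30). Exons of EIF2AK1 share 532 bases with AIMP2 on the other strand, and exons of EIF2AK2 share 401 bases with the pseudogene AC007899.1 and 35 with GPATCH11, so some reads of these stretches may be assigned to neither or to the wrong gene.

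EIF2AK4, the gene of GCN2 (ENSG00000128829, chr15:39934146-40035591, plus strand), measured 163, 148 and 137 CPM in HCC1806 controls and 153, 132 and 123 CPM after depletion. These groups overlapped, and the log2 change was -0.13 (95% interval -0.36 to 0.10). In MDA-MB-468 the levels were lower, 45.0 to 49.8 CPM in controls and 44.2 to 51.6 CPM after depletion, with a log2 change of 0.06 (95% interval -0.17 to 0.29). EIF2AK3, the gene of PERK (ENSG00000172071, chr2:88556741-88627576, minus strand), was the least abundant kinase of HCC1806, at 13.6, 10.9 and 11.8 CPM in controls and 11.1, 12.0 and 13.1 CPM after depletion. Its log2 change was -0.0027 (95% interval -0.26 to 0.25), and in MDA-MB-468, at 36.4 to 42.2 and 40.6 to 42.8 CPM, it was 0.06 (95% interval -0.18 to 0.29). The upper bounds of these intervals were folds of 1.07 (EIF2AK4) and 1.19 (EIF2AK3) in HCC1806 and 1.22 and 1.23 in MDA-MB-468, so larger rises of either mRNA fall outside them. Exons of EIF2AK3 share 781 bases with AC104134.1, an antisense gene with 136 counts over the 12 libraries against 10313 for EIF2AK3.

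**Figure D3:**
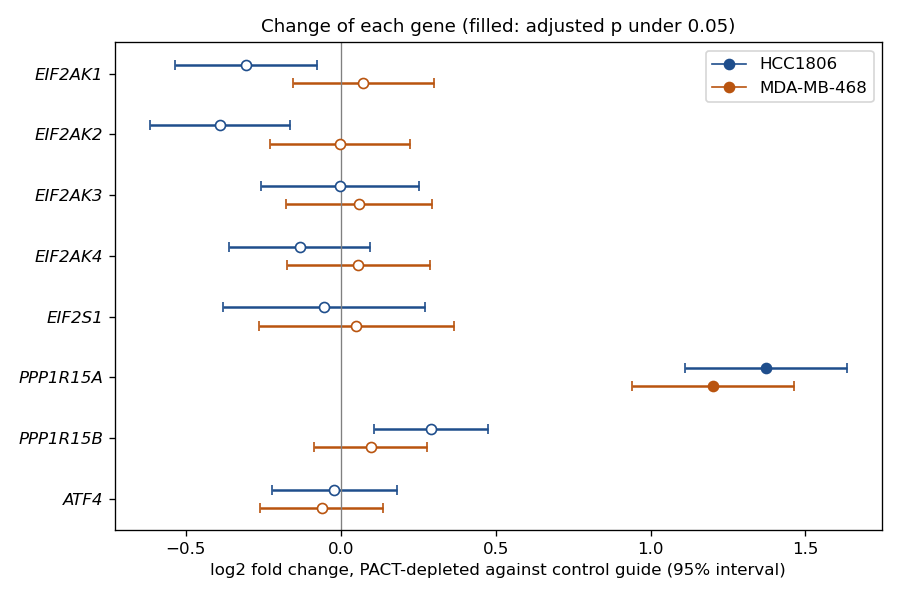
Log2 fold change of the 8 genes, depleted against control (x axis), with 95% intervals, for HCC1806 and MDA-MB-468 (colours); filled points have an adjusted p under 0.05. PPP1R15A is filled in both lines, at 1.37 and 1.20, and the intervals of EIF2AK1, EIF2AK2 and PPP1R15B leave out 0 in HCC1806 without passing the adjustment. All intervals come from the model over both lines.

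The make-up of the kinase pool can also be read within each library, as each gene's share of the counts per base of exon summed over the 4 kinases. In HCC1806 controls EIF2AK1 took 49.1% ± 0.346, EIF2AK2 29.8% ± 0.510, EIF2AK4 17.9% ± 0.512 and EIF2AK3 3.20% ± 0.335 (SD, n = 3 for each). In MDA-MB-468 controls EIF2AK1 took 66.5% ± 1.28 and EIF2AK2 19.7% ± 0.472, while EIF2AK3 (9.01% ± 0.712) stood above EIF2AK4 (4.78% ± 0.175). EIF2AK1 thus led per base in all 12 libraries, and the order of EIF2AK3 and EIF2AK4 differed between the lines. The share of EIF2AK2 went from 29.8% to 27.7% ± 1.46 in depleted HCC1806, a difference of -2.07 percentage points (exact two-sided permutation p = 0.20, with 0.10 the smallest possible). In MDA-MB-468 it went from 19.7% to 18.9% ± 1.22, a difference of -0.76 percentage points (exact permutation p = 0.50). The EIF2AK2 shares overlapped in both lines. The EIF2AK3 shares did not overlap in HCC1806, at 2.84% to 3.49% in controls and 3.77% to 4.09% after depletion, and did overlap in MDA-MB-468, at 8.24% to 9.65% and 8.35% to 10.04%; this was seen in the values and not tested. One depleted HCC1806 library, replicate 1, had a share of EIF2AK4 of 23.6%, above the group mean of 20.0% ± 3.22. The order depended in part on the length used: by the longest transcript EIF2AK4 (28.7%) exceeded EIF2AK2 (23.5%) in HCC1806 controls, and EIF2AK3 (8.46%) and EIF2AK4 (8.35%) were nearly level in MDA-MB-468 controls.

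**Figure D4:**
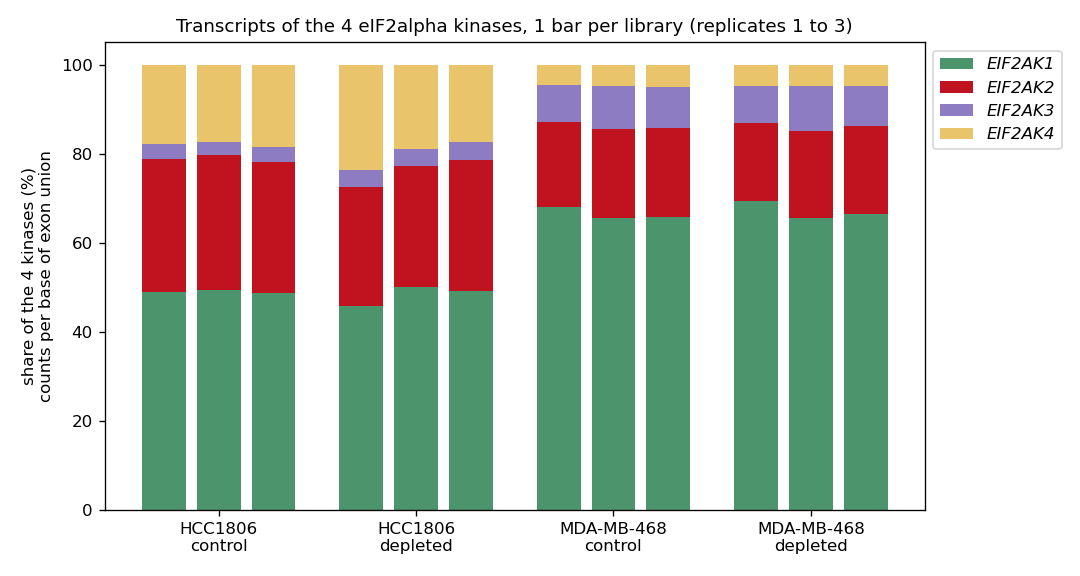
Share of each of the 4 kinase genes in their summed counts per base of exon (y axis, percent), with 1 stacked bar per library and the 3 replicates of each group side by side (x axis); colours are the genes. EIF2AK1 is the largest part of every bar, and EIF2AK4, the top part, takes 17.9% on average in HCC1806 controls and 4.78% in MDA-MB-468 controls.

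EIF2S1, the gene of the substrate whose serine is shown above (ENSG00000134001, chr14:67359997-67386516, plus strand), did not pass the test in either line. HCC1806 controls measured 40.2, 29.3 and 28.9 CPM and depleted libraries 39.5, 30.9 and 24.6 CPM. Replicate 1 was the highest library of both groups, and the other libraries ran from 24.6 to 30.9 CPM. The log2 change was -0.05 (SE 0.15, 95% interval -0.38 to 0.27). MDA-MB-468 controls measured 100.3, 92.2 and 97.0 CPM and depleted libraries 107, 91.0 and 102 CPM, with overlap and a log2 change of 0.05 (95% interval -0.27 to 0.37). Exons of EIF2S1 share 269 bases with ATP6V1D on the other strand.

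ATF4, the transcription factor that the pathway ends on (ENSG00000128272, chr22:39519695-39522685, plus strand), had an almost level mRNA. In HCC1806 it measured 133, 132 and 145 CPM in controls and 147, 127 and 132 CPM after depletion. The groups were mixed in order, and the log2 change was -0.02 (SE 0.10, 95% interval -0.22 to 0.18, adjusted p = 0.966). In MDA-MB-468 it measured 797, 788 and 777 CPM in controls and 825, 696 and 741 CPM after depletion. Here 1 depleted library was the highest of the 6 and the other two were the lowest (log2 -0.06, 95% interval -0.26 to 0.14, adjusted p = 1). The difference of the effects was -0.04 (95% interval -0.32 to 0.24). ATF4 protein was not measured in these libraries.

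The lines differed in all 8 genes, where 74.2% of all genes tested differed between the controls (34.2% higher and 40.1% lower in MDA-MB-468), and the direction was not shared by the genes. MDA-MB-468 held more ATF4 (5.75-fold, 95% interval 4.96 to 6.65, adjusted p = 4.4e-13), EIF2AK3 (3.31-fold), EIF2S1 (2.94-fold), PPP1R15B (1.71-fold) and EIF2AK1 (1.59-fold). It held less EIF2AK2 (0.776 times, adjusted p = 0.00531), PPP1R15A (0.447 times) and EIF2AK4 (0.314 times). All 8 passed in each of 18 alternatives, but the sizes moved. For the genes with the smallest differences, the log2 value ran from -0.68 to -0.28 (EIF2AK2) and from 0.36 to 0.75 (EIF2AK1). EIF2AK2, at -0.37 in the main fit, lay near the median of all genes, -0.26. The control groups carried different guides, sgC1 and sgNTA, so line and guide cannot be told apart, and scaling by library size alone moved the median of all genes in this comparison from -0.26 to -0.51 on the log2 scale.

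Genes were set against each other per kilobase of exon, here the union of all annotated exons. On this scale ATF4 led in HCC1806 controls at 54.5 CPM per kilobase. It was followed by PPP1R15A (39.8), EIF2AK1 (34.2), PPP1R15B (25.6), EIF2AK2 (20.8), EIF2AK4 (12.5), EIF2S1 (5.80) and EIF2AK3 (2.23). In depleted HCC1806 libraries PPP1R15A, at 103, stood first and ATF4, at 53.7, second. In MDA-MB-468 controls the level of ATF4 was 313 CPM per kilobase, then EIF2AK1 (54.4), PPP1R15B (43.9), PPP1R15A (17.8), EIF2S1 (17.1), EIF2AK2 (16.1), EIF2AK3 (7.38) and EIF2AK4 (3.92). PPP1R15A remained in the fourth place there after depletion, at 40.9, below PPP1R15B at 46.9. The order depended in part on the length used. By the longest transcript PPP1R15A, at 58.4, 46.2 and 55.0 in depleted MDA-MB-468, stood above PPP1R15B, at 46.8, 45.6 and 48.2. Likewise EIF2AK4, at 29.6, 26.9 and 24.9 in HCC1806 controls, stood above PPP1R15B, at 27.3, 24.9 and 24.7.

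The 3 genes whose values over the 12 libraries, after each line's mean was removed, were most like those of PPP1R15A were INHBE (r = 0.972), NOCT (r = 0.966) and MB21D2 (r = 0.964), among 15917 genes with a mean of 50 counts or more. These correlations share the depleted and control groups with the PPP1R15A rise and are given as a description. INHBE, which encodes an inhibin beta subunit, went from 1.53 ± 0.328 to 9.28 ± 2.61 CPM in HCC1806 and from 1.24 ± 0.143 to 8.24 ± 1.11 CPM in MDA-MB-468 (SD, n = 3). NOCT, a phosphatase whose expression follows the circadian clock, went from 10.3 ± 1.88 to 19.0 ± 2.90 and from 11.6 ± 1.29 to 19.9 ± 1.75 CPM. It passed in HCC1806 (adjusted p = 0.00702) and not in MDA-MB-468 (0.0553). MB21D2 passed in neither line (adjusted p = 0.0514 and 0.123).

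Genes known as ATF4 targets stood higher in many cases, while ATF4 mRNA was near level. Of 32 targets, a list that leaves out the 8 genes above, 11 rose and 1 fell in HCC1806, where 2.49% of all genes changed, and 25 had a positive change, as did 50.9% of all genes, with a median log2 change of 0.33 against 0.01 over all genes. In MDA-MB-468, where 0.170% of all genes changed and 44.7% were positive, 4 rose, none fell and 27 were positive, with a median of 0.19 against -0.01. ATF3, a stress-induced repressor, rose from 7.57 ± 1.25 to 44.4 ± 4.71 CPM in HCC1806 (log2 2.55, SE 0.14, adjusted p = 3.2e-08) and from 29.5 ± 0.350 to 91.2 ± 12.9 CPM in MDA-MB-468 (log2 1.63, SE 0.13, adjusted p = 7.9e-06). INHBE, given above, rose by 2.60 and 2.73 on the log2 scale and was the other target past the threshold in both lines. TRIB3, a pseudokinase that restrains ATF4, rose from 38.4 to 77.8 CPM in HCC1806, and in MDA-MB-468 went from 430.0 to 617 CPM (log2 0.52, adjusted p = 0.0553). SESN2, which damps mTORC1, rose from 17.9 to 41.5 CPM in HCC1806, and its log2 change of 0.49 in MDA-MB-468 had an adjusted p of 0.0848.

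Among the 32 targets, the difference of the effects between the lines passed for CHAC1 and GDF15, in opposite directions (-1.64 and 1.52 on the log2 scale, adjusted p = 0.0338 and 0.0362). Over all genes tested, 0.122% passed. In HCC1806 CHAC1 (log2 2.01), ASNS (1.03), DDIT3 (0.80), ADM2 (0.74), WARS (0.65) and CEBPB (0.55) rose, as did FGF21, which had 0 counts in the 3 controls and 3 to 7 in the depleted libraries, at least 1.43-fold higher with 3 counts per library as the floor. SLC7A5, a large neutral amino acid transporter, fell from 2425 ± 210 to 1640 ± 184 CPM (log2 -0.56, adjusted p = 0.00835). In MDA-MB-468 GDF15, a stress cytokine, rose from 1.50 ± 0.367 to 4.44 ± 0.970 CPM (log2 1.57, adjusted p = 0.00263), and CTH, which makes cysteine, rose from 16.1 ± 1.09 to 28.2 ± 4.75 CPM (log2 0.80, adjusted p = 0.0184). With each line fitted alone the counts turned the other way, with 5 targets past the threshold in HCC1806 against 13 in MDA-MB-468. With DESeq2 they were 15 and 9, and with the replicate block 16 in HCC1806. Leaving out 1 library at a time gave 9 to 16 changed targets for HCC1806. For MDA-MB-468 it gave 3 to 9, with 9 without depleted HCC1806 replicate 1, 8 without depleted HCC1806 replicate 3 and 7 without HCC1806 control replicate 3. Among the 12 fits with 1 library left out, FGF21 passed in 1, CTH in 7, CEBPB in 9 and ADM2 in 10. In HCC1806 3 of the 6 epithelial markers also fell (KRT5 by 0.92, EPCAM by 0.55 and CDH1 by 0.38 on the log2 scale; 1 to 5 of 6 with 1 library left out), and none did in MDA-MB-468. Their part in these counts was not tested.

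**Figure D5:**
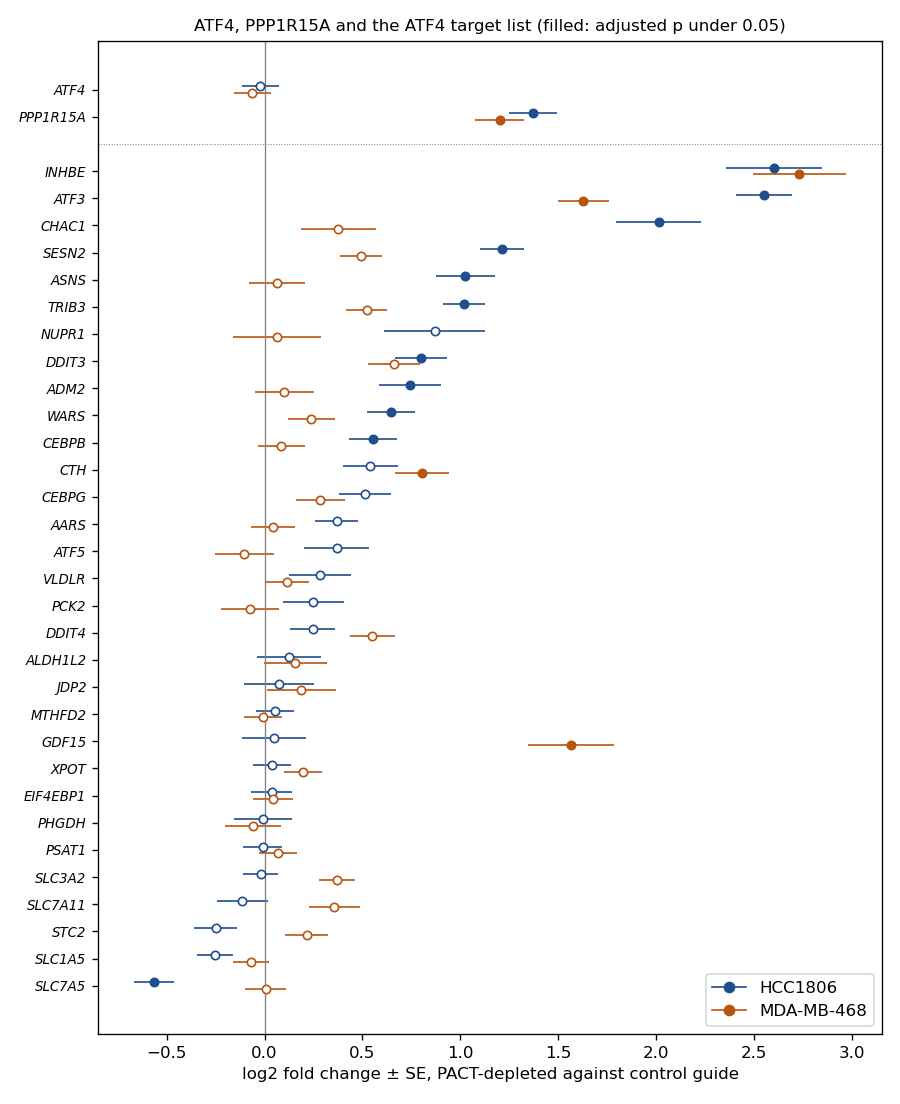
Log2 fold change after depletion (x axis, ± SE) of ATF4, PPP1R15A and the ATF4 targets (y axis), for HCC1806 and MDA-MB-468 (colours); filled points have an adjusted p under 0.05, and FGF21 is left out because its HCC1806 controls had 0 counts. ATF4 lies near 0 in both lines, PPP1R15A at 1.37 and 1.20, and of the targets ATF3 and INHBE are filled in both lines.

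Among partners of the 8 genes, the only one that changed in the main edgeR fit was PRKRA, the gene that the guide was directed against. Of 28 genes of the eIF2 machinery and kinase regulators, PRKRA was the 1 that changed in HCC1806 and none changed in MDA-MB-468 (none with DESeq2 or at an unadjusted p under 0.05), with medians of -0.08 and 0.00. Over all genes 2.49% and 0.170% changed, so these counts of called genes say nothing particular of the list. In HCC1806, however, 8 of the 28 had an unadjusted p under 0.05 in edgeR's test, against 14.5% of all genes. PRKRA, the target of the guide, is among these 8. A positive change was found for 8 of the 28, against 50.9% of all genes. A shift of the list as a whole was not tested. The catalytic subunits of protein phosphatase 1, PPP1CC, PPP1CA and PPP1CB, had lower values in HCC1806 that did not pass. PPP1CC measured 161 ± 16.7 against 124 ± 4.05 CPM (log2 -0.37, adjusted p = 0.0505). PPP1CA measured 92.0 ± 7.43 against 72.4 ± 8.08 CPM (log2 -0.34, adjusted p = 0.128). PPP1CB measured 172 ± 21.7 against 139 ± 13.9 CPM (log2 -0.31, adjusted p = 0.169). IMPACT, an inhibitor of GCN2, measured 7.20 ± 0.708 against 5.00 ± 0.556 CPM (log2 -0.53, adjusted p = 0.0615). With the replicate block 4 genes of this list changed in HCC1806: PPP1CC (adjusted p = 0.00980), PPP1CA (0.0148), IMPACT (0.0277) and PRKRA. With DESeq2 3 changed there: PRKRA, PPP1CC (adjusted p = 0.00687) and IMPACT (0.0174). Between 1 and 5 changed with 1 library left out, 5 without depleted HCC1806 replicate 1 and 2 without HCC1806 control replicate 3. The eIF2 beta subunit EIF2S2, EIF2B2 of the exchange factor and the chaperone HSPA5 had, after PRKRA, the smallest p-values of the list in MDA-MB-468, with log2 changes of 0.12, 0.13 and 0.19 and adjusted p-values of 1.

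Targets of the parallel ATF6 and XBP1 branches of the unfolded protein response changed in both directions in HCC1806. Of 18, 1 rose and 1 fell in HCC1806 and none changed in MDA-MB-468 (none with DESeq2, 1 at an unadjusted p under 0.05), with medians of -0.05 and 0.00, where 2.49% and 0.170% of all genes changed. The co-chaperone DNAJB9 rose from 10.6 to 15.0 CPM (log2 0.50, adjusted p = 0.0453), and the chaperone HSP90B1 fell from 4147 to 2988 CPM (log2 -0.47, adjusted p = 0.0327). The disulfide isomerases PDIA6 (log2 -0.48) and PDIA4 (-0.41) had adjusted p-values of 0.0584 and 0.0816, and with the replicate block 0.00141 and 0.00521. The count of 2 was 0 with HCC1806 fitted alone, 6 with the block or DESeq2, and 0 to 6 with 1 library left out, where DNAJB9 passed in 1 and HSP90B1 in 6 of 12 fits. In MDA-MB-468 the smallest p was that of DNAJB9, at a log2 change of 0.31 (adjusted p = 0.782).

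Interferon-stimulated genes are given because PKR is one and its promoter is shown above. Of 26 such genes other than EIF2AK2, 4 rose in HCC1806 and none fell, with a median of 0.15, and none changed in MDA-MB-468 (none with DESeq2, 1 at an unadjusted p under 0.05), where the median was -0.06. Over all genes 2.49% and 0.170% changed, so a count of none in MDA-MB-468 says nothing particular of this list. The RNA sensor DDX58 (RIG-I) rose from 17.6 ± 1.07 to 30.1 ± 2.79 CPM (log2 0.77, adjusted p = 0.00408) and OASL from 1.28 ± 0.221 to 5.56 ± 0.789 CPM (log2 2.11, adjusted p = 0.00419). RSAD2 (log2 2.03, adjusted p = 0.0115) and the transcription factor IRF7 (log2 0.54, adjusted p = 0.0301) were the others. EIF2AK2 itself, at a log2 value of -0.39, had the opposite sign in that line. With HCC1806 fitted alone 2 of the 4 passed, and so did 2 without HCC1806 control replicate 1, while the block gave 6. With 1 library left out IRF7 passed in 5 and RSAD2 in 11 of 12 fits. In MDA-MB-468 DDX58 measured 10.7 ± 0.414 against 9.34 ± 1.27 CPM, and IFIT1 and IFIH1 had log2 values of -0.50 and 0.21 that did not pass (adjusted p = 0.817 and 1).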

How the data were processed

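The deposited file holds whole-number read counts per gene for 12 libraries. Per the submitters' processing notes, the authors used Trimmomatic 0.36, STAR 2.5.2b and featureCounts of Subread 1.5.2 with GRCh38; the annotation release and strand setting of the counting are not given in the sources used here, so reads of overlapping genes on opposite strands may not be told apart. Genes without a name held 0.0284% of counts. From these counts, 1 edgeR 4.0.16 quasi-likelihood model (R 4.3.3, filterByExpr, TMM) was fitted over the 4 groups, with Benjamini-Hochberg adjustment over the 27029 genes tested. SEs are the log2 fold change divided by the root of F. The scripts were tested on simulated data. Shares and ratios were compared by exact two-sided permutation over libraries. Coordinates, lengths and coding sequences come from GENCODE 29, promoters from RefSeq.

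In HCC1806 the deviations of same-numbered control and depleted libraries from their group means correlated at 0.479, 0.294 and 0.152 over 15918 genes. The numbers met the rule used (every r over 0.1), but control 2 correlated more with depleted 3 (0.351) than with depleted 2. In MDA-MB-468 the values were 0.116, 0.075 and 0.106, and the numbers were not taken as pairs. Each control library there still correlated most with its same-numbered depleted library. The main tests used no pairing in either line.

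Named are the 8 genes, PRKRA, the 3 genes most correlated with a changed member, and from each list the 4 genes of smallest p in each line plus any changed in both. Other ATF4 targets that changed (CHAC1, ASNS, DDIT3, ADM2, WARS, CEBPB, FGF21 and SLC7A5), PPP1CB and the epithelial markers were named after their values were seen. The members and lists were chosen with earlier results of these data known. Alternatives were DESeq2 1.42.0 (its own size factors), RLE size factors, library size alone, no filter and a mean of at least 50 counts. Others were the replicate number as a block, each line alone and each library left out. For the line difference, the control libraries of both lines were fitted alone.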

Additional observations from a re-analysis of the deposited data

Results flagged for a closer look

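The difference between the lines in the effect of depletion passed the threshold for 4 of the genes described. The test was edgeR's test of the difference itself (MDA-MB-468 minus HCC1806, log2, adjusted over all genes tested). That difference passed for 0.122% of all genes tested, and PRKRA, among the 4, is the target of the guide. For PRKRA the difference was 0.87 (adjusted p = 0.0198), with a fall in HCC1806 and overlapping groups in MDA-MB-468; it passed in 5 of the 12 fits with 1 library left out, where the adjusted p reached 0.0931. For CHAC1 it was -1.64 (adjusted p = 0.0338; 3 of 12, up to 0.133), as CHAC1 went from 5.01 to 20.2 CPM in HCC1806 and from 22.9 to 29.8 CPM in MDA-MB-468. For GDF15 it was 1.52 (adjusted p = 0.0362; 5 of 12, up to 0.165), with 75.3 against 77.8 CPM in HCC1806 and a rise in MDA-MB-468. For DDX58 it was -0.97 (adjusted p = 0.0489; 1 of 12, up to 0.166), with a rise in HCC1806 and 10.7 against 9.34 CPM in MDA-MB-468.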

How the results depend on the processing

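Of the fitted changes of the 8 genes and PRKRA under all alternatives, 650 stayed on their side of the threshold, no called change reversed, 9 newly passed (EIF2AK2 and PPP1R15B in HCC1806), and 7 no longer passed (the PRKRA difference with 1 library left out). Without a count filter 1351 genes changed in HCC1806, 143 in MDA-MB-468 and 275 in the difference, and with DESeq2 1233, 108 and 177, against 672, 46 and 33. With the replicate block they were 1947, 102 and 271, and each line alone gave 74 and 323. The 1 changed member of HCC1806 became 2 with library size alone, no filter or a mean of at least 50 counts, and 3 with DESeq2 or the replicate block; the block changed no other member's call. In MDA-MB-468, where the numbers were not taken as pairs, the block left 1 member changed and moved the ATF4 targets from 4 to 8. The line difference had 20068 genes, and 13022 at a mean of at least 50 counts, where fewer genes were tested. Leaving out 1 library gave 301 to 1792 genes in HCC1806 (301 without control replicate 1, 1792 without depleted replicate 1), 19 to 98 in MDA-MB-468 (19 without its depleted replicate 3, 98 without depleted HCC1806 replicate 1), 9 to 168 in the difference and 18973 to 21248 between lines. Members changed were then 1 to 2 in HCC1806 (2 without control or depleted replicate 3), 1 to 1 in MDA-MB-468, 0 to 0 in the difference and 8 to 8 between lines. The log2 ratio of PPP1R15A to PPP1R15B moved over 0.994 to 1.18 and 1.02 to 1.23, and the EIF2AK2 share by -2.91 to -1.57 and -1.15 to -0.0563 percentage points, in HCC1806 and MDA-MB-468. The causes were not tested. The block was not run for the line difference. For that comparison the control libraries were fitted alone, which gave 19061 genes and 8 members. The difference of the effects had no such fit. In HCC1806 EIF2AK1 passed in 0, EIF2AK2 in 5 and PPP1R15B in 4 of the 19 edgeR and DESeq2 alternatives. Their adjusted p-values there ran from 0.0579 to 0.435, 0.0109 to 0.303 and 0.00754 to 0.313. Whether more than 3 libraries a group would settle these calls was not tested.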
